A study of Mus musculus with 6 samples.

Results

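Transcript levels of 35 mouse genes that serve neutrophils were examined in diabetic skin wounds, out of 33184 genes in the deposited table. The genes were taken from that table by name and known function. They comprised 2 calprotectin alarmins, 4 primary granule proteins, 6 secondary or tertiary granule proteins, 11 surface receptors and adhesion molecules, 4 genes of NET formation and the NADPH oxidase, 2 transcription factors of granulocyte maturation and 6 cytokine or other neutrophil-linked genes. The label is a functional one, since several of these genes are also expressed by other cells of a wound.

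Whole wound tissue was sequenced from db/db mice, a strain on the C57BL/Ks background that carries a mutated leptin receptor and becomes obese and diabetic. Dorsal full-thickness wounds of 6 mm were injected at their margin 1 day after injury with 2′OMe-modified siRNA, either a negative control (NC, n = 3 libraries) or SFRP2-siRNA (n = 3 libraries), which is directed at the secreted Wnt modulator Sfrp2. All animals of both groups were diabetic, their age was not given in the sources used here, and injected siRNA is not restricted to 1 cell type. The protocol gave day 4 after injury for collection, whereas the sample titles carry day 3.

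Neutrophils are the first leukocytes to enter a wound in number. They are made in bone marrow, where each set of granule proteins is transcribed at its own stage of maturation: primary granule enzymes in promyelocytes, lactoferrin and cathelicidin later, and most surface receptors and calprotectin still later and in the circulating cell. Mature neutrophils therefore hold much granule protein whose mRNA they no longer make. Neutrophil extracellular traps (NETs) are extruded chromatin, formed with the help of the histone deiminase PADI4 and, in many settings, of oxidants from the NADPH oxidase, and they have been tied to slow wound closure in diabetes.

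The targeted gene went against its label. Sfrp2 stood at 11.6, 40.6 and 14.1 FPKM (a level scaled to gene length and to the reads of the library) in NC libraries 1 to 3, whereas libraries 1 to 3 labelled SFRP2-siRNA held 50.6, 54.6 and 55.2 FPKM. Its log2 fold change was 1.45 with a standard error of 0.43 (limma, Benjamini-Hochberg adjusted p = 0.518, and exact permutation p = 0.1, the smallest that 3 against 3 libraries allow). This is a measurement of RNA in these 6 libraries, and protein was not analysed here. Every direction given here is a difference between libraries labelled SFRP2-siRNA and libraries labelled NC. Libraries held 42925443 to 47117132 reads assigned to genes, and 26081 to 27189 genes above 0. Nothing says that each library came from a separate animal, so p-values measure the spread between these libraries.

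Promoter sequences of 5 genes are given first, because they stand for the 3 patterns described below: S100a8 and Retnlg, high in 2 of the libraries labelled SFRP2-siRNA, Ngp and Ltf, granule genes that were highest in an NC library, and Padi4, the histone deiminase. Each is the stretch of 250 bases before the RefSeq transcription start (build GRCm38.p6), read 5′ to 3′ on the gene's strand, and capitals mark the motifs searched: the C/EBP core TTGCNNAA and the PU.1 core GAGGAA on either strand, and the TATA box TATAAA on the gene's strand.
S100a8, chr3:90668821-90669070, plus strand: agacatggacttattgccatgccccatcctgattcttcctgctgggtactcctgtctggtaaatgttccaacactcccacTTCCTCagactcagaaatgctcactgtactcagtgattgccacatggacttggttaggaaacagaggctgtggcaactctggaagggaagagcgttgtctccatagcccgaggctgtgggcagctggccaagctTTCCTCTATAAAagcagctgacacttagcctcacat
Retnlg, chr16:48872358-48872607, plus strand: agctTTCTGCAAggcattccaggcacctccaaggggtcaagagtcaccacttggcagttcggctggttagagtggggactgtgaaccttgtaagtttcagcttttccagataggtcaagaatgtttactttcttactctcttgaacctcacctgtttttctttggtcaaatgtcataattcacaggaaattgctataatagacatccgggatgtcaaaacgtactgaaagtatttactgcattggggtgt
Ngp, chr9:110419558-110419807, plus strand: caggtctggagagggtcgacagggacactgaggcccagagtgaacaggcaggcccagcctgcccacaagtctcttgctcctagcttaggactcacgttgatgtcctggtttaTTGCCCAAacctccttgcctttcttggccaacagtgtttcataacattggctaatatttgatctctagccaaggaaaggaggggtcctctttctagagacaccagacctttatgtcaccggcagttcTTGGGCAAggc
Ltf, chr9:111019042-111019291, plus strand: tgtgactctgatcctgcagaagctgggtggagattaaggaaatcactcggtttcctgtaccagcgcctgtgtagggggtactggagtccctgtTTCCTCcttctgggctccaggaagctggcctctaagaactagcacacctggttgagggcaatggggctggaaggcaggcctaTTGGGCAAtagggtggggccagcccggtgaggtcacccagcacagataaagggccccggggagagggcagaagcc
Padi4, chr4:140774204-140774453, minus strand: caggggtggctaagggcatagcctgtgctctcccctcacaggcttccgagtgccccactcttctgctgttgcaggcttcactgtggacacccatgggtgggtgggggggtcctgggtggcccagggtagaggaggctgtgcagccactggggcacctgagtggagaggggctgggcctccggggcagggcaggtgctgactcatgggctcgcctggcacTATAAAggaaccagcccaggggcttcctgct

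C/EBP proteins, C/EBPε among them, and PU.1 are the factors best known for driving granulocyte genes. The S100a8 window held the PU.1 core starting 170 and 36 bases before the transcription start, the latter directly followed by the TATA box at 30 bases. The Ngp window held the C/EBP core at 138 and 11 bases, the Ltf window at 75 bases beside a PU.1 core at 157 bases, and the Retnlg window at 246 bases. The Padi4 window held neither core, only a TATA box at 31 bases. RefSeq windows were found for 28 of the 35 genes, 30 windows in all. Counts are per window and not per gene. The windows of Ly6g overlap, so the same PU.1 cores and TATA box were counted in each of them. The C/EBP core was present in 8 of the 30 (26.7%), against 9.56% of 32851 windows of the same length over all genes, and the PU.1 core in 17 (56.7%, against 23.3%). A TATA box on the gene's strand was present in 9 (30%, against 7.59%). These are matches of letters and not mapped binding sites.

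Of the 35 genes, 32 had a mean of at least 0.5 FPKM and were tested with limma together with all other genes above that level. No gene passed an adjusted p below 0.05 with an absolute log2 fold change above 1, among the 32 or among all 16005 genes tested (0%), and the smallest limma adjusted p of any was 0.518. Limma voom on reads recovered from the FPKM values called none of the 32 it tested either. At an unadjusted p below 0.05, 3 of the 32 differed (Ctsg, Itgb2 and Ncf1), against 9.58% of all genes, that is 1533 genes. The log2 fold change was above 0 for 23 of the 32, close to the 71.8% of all genes. By mean FPKM 26 of the 32 were higher in the SFRP2-siRNA group, since Hp, Lcn2 and Lrg1 had a higher mean FPKM but a log2 fold change below 0. The groups did not overlap, with every SFRP2-siRNA library above every NC library, for 1 of the 32 (Ncf1) against 13.9% of all genes, and for 0 in the other direction against 3.92%. The median log2 fold change of the 32 genes was 0.54, and that of all genes 0.125, a difference of 0.42.

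These counts hide a split within the libraries labelled SFRP2-siRNA. Libraries 1 and 2 of that group both lay above all 3 NC libraries for 25 of the 35 genes, whereas library 3 lay within the NC range for 25, below it for 7 and above it for 3. SFRP2-siRNA library 1 was the highest of all 6 libraries for 23 genes and NC library 3 the lowest for 17. Shares over all genes were not computed for the highest or lowest library or for the place of library 3. Library 1 was also the highest for all 10 macrophage markers and all 7 red cell and platelet genes read for comparison. Libraries 1 and 2 both lay above all NC libraries for 8 and 5 of these, and for 4 of 10 keratinocyte and 0 of 8 adipocyte markers. Library 3 lay below the NC range for 7 of the 10 keratinocyte and 7 of the 8 adipocyte markers, and for 0 of the macrophage and 0 of the red cell and platelet genes. A low library 3 was therefore not particular to the neutrophil genes. With median-of-ratios scaling in place of the deposited values, 20 of the 35 genes had SFRP2-siRNA libraries 1 and 2 above all NC libraries, and library 3 lay within the NC range for 22, below it for 12 and above it for 1. With rescaling to equal sums 25 genes had libraries 1 and 2 above. Shares over all genes were not computed for libraries 1 and 2 under these scalings. The share of all genes with all 3 SFRP2-siRNA libraries above NC was 13.9% as deposited, 5.26% with median-of-ratios scaling and 14.6% with equal sums. Without SFRP2-siRNA library 3, 22 of the same 32 genes were higher without overlap, against 22.1% of all genes tested, and 20 had an unadjusted p below 0.05, against 8.86%. That library was singled out after these same genes were seen to be low in it. Both counts therefore restate the split and are no separate support for a difference. Without NC library 1, which stood apart for another set of genes described below, 5 of the same 32 were higher without overlap, against 15.8% of all genes tested. None of the 32 was called by limma after adjustment in either fit, the smallest adjusted p being 0.444 without SFRP2-siRNA library 3 and 0.845 without NC library 1.

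**Figure D1:**
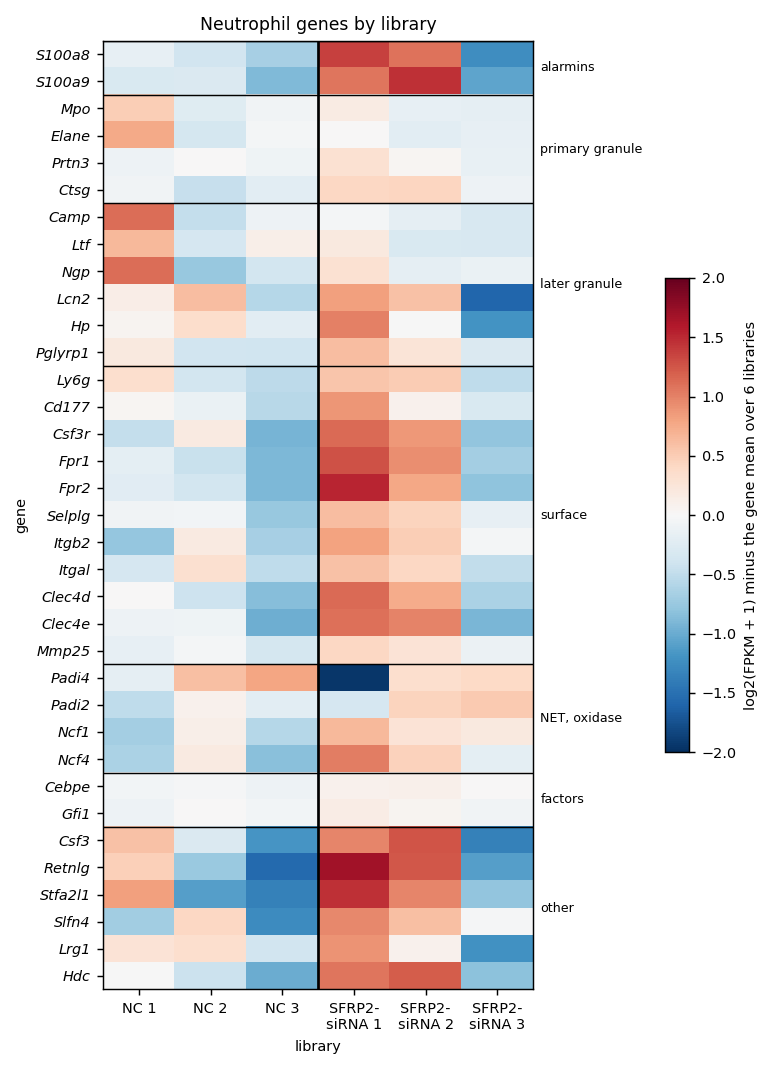
Level of each of the 35 genes (rows, grouped by role) in each of the 6 libraries (columns), as log2(FPKM + 1) minus the gene's mean over the 6 libraries. SFRP2-siRNA libraries 1 and 2 are above the mean for most alarmin, surface and other genes and SFRP2-siRNA library 3 is not, NC library 1 is highest for Mpo, Elane, Camp, Ltf and Ngp, and Padi4 is lowest in SFRP2-siRNA library 1.

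Calprotectin, the metal-binding heterodimer of S100A8 and S100A9, is the most abundant cytosolic protein of neutrophils, and its transcripts were among the most abundant of the 35. S100a9 stood at 1368, 1377 and 910 FPKM in NC libraries 1 to 3 and at 3529, 4658 and 805 FPKM in SFRP2-siRNA libraries 1 to 3. S100a8 stood at 256, 219 and 182 FPKM in the NC libraries and at 738, 610 and 121 FPKM in the SFRP2-siRNA libraries. For both genes SFRP2-siRNA libraries 1 and 2 were the highest of the 6 and SFRP2-siRNA library 3 the lowest, so that the groups overlapped. The log2 fold change was 0.98 with a standard error of 0.67 for S100a9 (limma adjusted p = 0.572, exact permutation p = 0.4), and 0.81 with a standard error of 0.66 for S100a8 (limma adjusted p = 0.611, exact permutation p = 0.4). Without SFRP2-siRNA library 3 these values were 1.76 and 1.63. The genes are neighbours on the chromosome and moved together, the ratio of S100a9 to S100a8 staying between 4.78 and 7.63 in the 6 libraries. Wound keratinocytes also make calprotectin. The summed level of 10 keratinocyte and wound-edge markers was 5486 to 9120 FPKM in the NC libraries and 9236, 8723 and 4666 FPKM in SFRP2-siRNA libraries 1 to 3. Libraries 1 and 2 lay above all NC libraries for 4 of the 10 markers, and library 3 lay below the NC range for 7. Among the 4, Krt16 stood at 429, 593 and 495 FPKM in the NC libraries and at 1124, 949 and 205 FPKM in the SFRP2-siRNA libraries. The part of keratinocytes in the calprotectin levels was not tested.

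Surface receptors and adhesion molecules shared with calprotectin the high levels in SFRP2-siRNA libraries 1 and 2, but in none was library 3 the lowest. Of the 11, 10 were tested, and all 10 had a higher mean in the SFRP2-siRNA group. Their log2 fold changes were all above 0, as were 71.8% of those of all genes. They ran from 0.34 to 1.02 with a median of 0.80, and none was called. In all 11, SFRP2-siRNA libraries 1 and 2 lay above every NC library, against 22.1% of all genes tested without library 3. For each of the 11, SFRP2-siRNA library 1 was the highest of the 6 and SFRP2-siRNA library 3 lay within the NC range. With median-of-ratios scaling 9 of the 11 had libraries 1 and 2 above the NC libraries, Ly6g and Cd177 being the exceptions. Under that scaling library 1 was the highest for 10, and library 3 lay within the NC range for 8 and below it for 3. Shares over all genes were not computed for these counts.

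Ly6g, the surface protein by which mouse neutrophils are usually identified, was low, at 2.77, 1.31 and 1.07 FPKM in the NC libraries and 3.36, 3.21 and 1.08 FPKM in the SFRP2-siRNA libraries, which corresponds to 46 to 137 reads per library. Its 2 highest libraries were only a little above NC library 1, and its log2 fold change was 0.36 with a standard error of 0.35 (limma adjusted p = 0.65, exact permutation p = 0.3). Cd177, a GPI-anchored partner of proteinase 3 on the neutrophil surface, was of like abundance, at 0.761 to 1.65 FPKM in the NC libraries and 3.77, 1.75 and 1.10 FPKM in the SFRP2-siRNA libraries.

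The formyl peptide receptors, which guide neutrophils to bacterial and mitochondrial peptides, had the largest fold changes of the surface genes. Fpr1 stood at 9.04, 7.45 and 5.18 FPKM in the NC libraries and at 26.7, 20.9 and 6.19 FPKM in the SFRP2-siRNA libraries. Its log2 fold change was 1.02 with a standard error of 0.50 (limma adjusted p = 0.523, exact permutation p = 0.3), and 1.61 without SFRP2-siRNA library 3. Its neighbour Fpr2 had a log2 fold change of 1.00, and the ratio of Fpr2 to Fpr1 stayed between 1.06 and 1.43 in the 6 libraries. Fpr2 shares 3.70% of its exon bases with Fpr3 on the same strand, so a small part of its reads cannot be assigned to either with certainty. Csf3r, the receptor for the granulocyte growth factor G-CSF, stood at 15.0, 24.3 and 10.7 FPKM in the NC libraries and at 47.9, 39.4 and 11.9 FPKM in the SFRP2-siRNA libraries, a log2 fold change of 0.81.

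The C-type lectins Clec4d and Clec4e, adjacent genes whose products form a receptor for fungal and mycobacterial glycolipids and are shared with macrophages, had log2 fold changes of 0.84 and 0.78. Clec4d, the most abundant of the surface genes, stood at 61.0, 45.8 and 33.4 FPKM in the NC libraries and at 135, 103 and 39.2 FPKM in the SFRP2-siRNA libraries, with a standard error of 0.47 on its log2 fold change (limma adjusted p = 0.536, exact permutation p = 0.3). Itgb2, the common chain of the leukocyte integrins, stood at 18.5, 36.6 and 19.9 FPKM in the NC libraries and at 57.1, 45.9 and 31.4 FPKM in the SFRP2-siRNA libraries. A log2 fold change of 0.84 had a standard error of 0.32, with an unadjusted limma p of 0.035 and an adjusted p of 0.518 (exact permutation p = 0.2). Only NC library 2 exceeded its lowest SFRP2-siRNA library. Itgal, the alpha chain of LFA-1, and Selplg, the ligand of P-selectin, had log2 fold changes of 0.34 and 0.59. Mmp25, a membrane-bound metalloprotease of neutrophils, fell under the filter with 0.152 to 0.423 FPKM in the NC libraries and 0.945, 0.770 and 0.344 FPKM in the SFRP2-siRNA libraries.

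**Figure D2:**
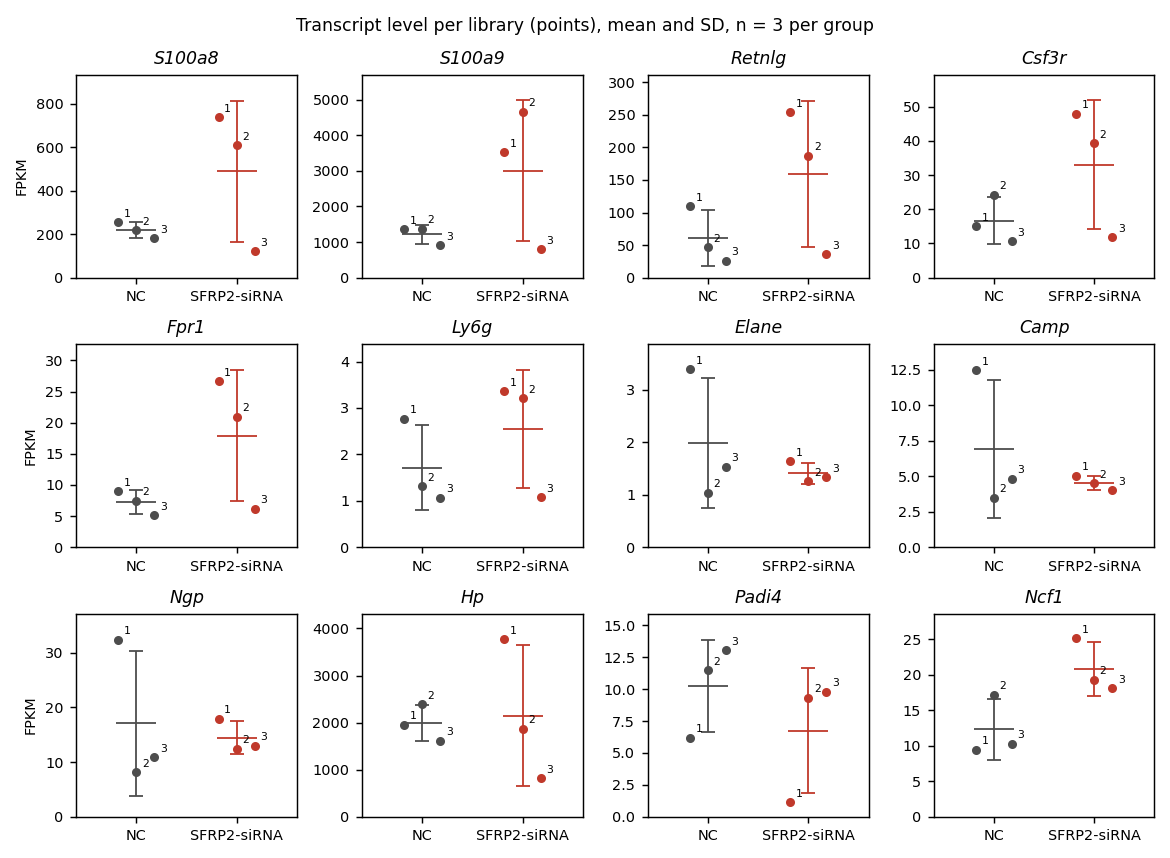
FPKM of 12 of the genes in each library (points, numbered by replicate within the NC and SFRP2-siRNA groups), with the mean (horizontal line) and SD (bars) of n = 3 libraries; each panel has its own linear axis from 0. For S100a8, S100a9, Retnlg, Csf3r, Fpr1 and Ly6g the SFRP2-siRNA points 1 and 2 stand above all NC points and point 3 does not.

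Integrins, lectins and oxidase subunits are expressed by macrophages as well, and macrophage markers also had higher means in the SFRP2-siRNA group. The summed level of 10 macrophage markers was 597 to 928 FPKM in the NC libraries and 1005 to 1257 FPKM in the SFRP2-siRNA libraries. With median-of-ratios scaling these sums overlapped. All 10 had a higher mean. The groups overlapped for 6 of the 10 and did not for 4, against 13.9% of all genes tested that were higher without overlap. An unadjusted limma p below 0.05 was found for 8, against 9.58% of all genes, but none was called (smallest limma adjusted p = 0.518). SFRP2-siRNA library 3 lay above the NC range for 6 of those 10 markers. The summed level of 8 defining neutrophil markers was 1148 to 1774 FPKM in the NC libraries and 4635, 5563 and 997 FPKM in SFRP2-siRNA libraries 1 to 3, most of it calprotectin. No marker of either list was at 0 in any library. The part of macrophages in the levels of the shared genes was not tested. In whole tissue, fewer cells of a type and less RNA per cell cannot be told apart.

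**Figure D3:**
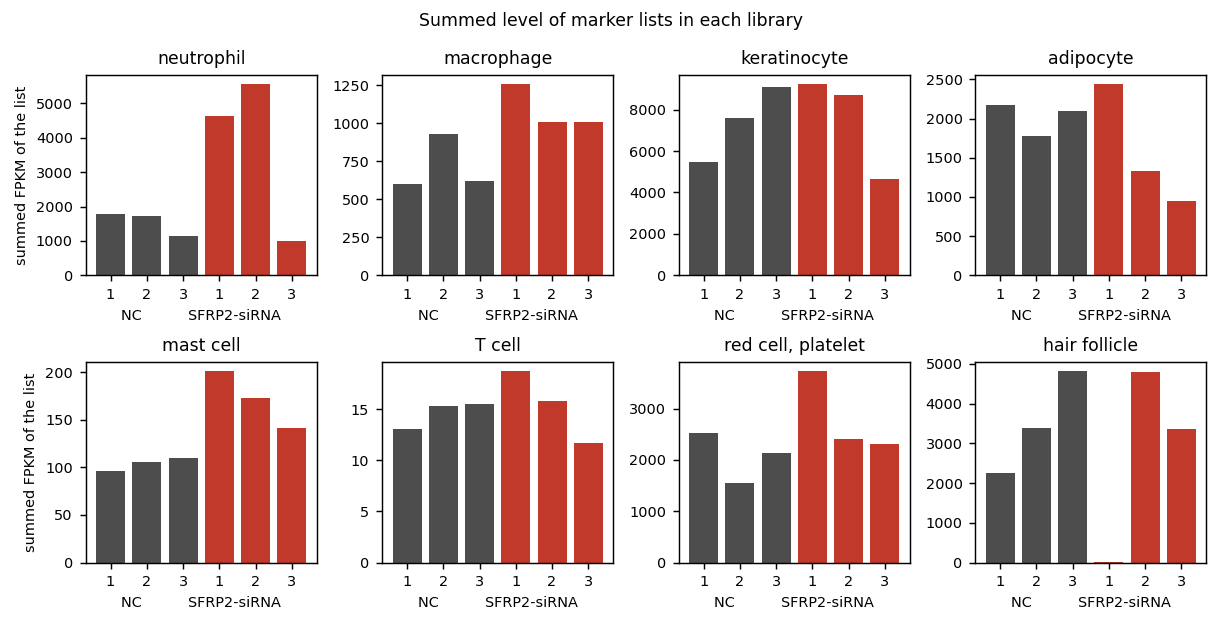
Summed FPKM of 8 lists of cell type genes in each of the 6 libraries (bars from 0, NC libraries dark, SFRP2-siRNA libraries red, numbered by replicate). The neutrophil sum, most of it calprotectin, is high in SFRP2-siRNA libraries 1 and 2 only. The macrophage sum is above the NC libraries in all 3 SFRP2-siRNA libraries. The hair follicle sum is 22.1 in SFRP2-siRNA library 1 against 2263 to 4813 in the NC libraries.

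Transcripts of primary granule enzymes, which are made by promyelocytes, were scarce, and 2 of the 4 had a higher and 2 a lower mean in the SFRP2-siRNA group, with a median log2 fold change of 0.0034. Elane, neutrophil elastase, stood at 3.39, 1.04 and 1.53 FPKM in the NC libraries and at 1.63, 1.26 and 1.34 FPKM in the SFRP2-siRNA libraries. Mpo, the peroxidase that makes hypochlorous acid, stood at 1.27, 0.355 and 0.535 FPKM in the NC libraries and at 0.810, 0.432 and 0.415 FPKM in the SFRP2-siRNA libraries. Both were highest in NC library 1, and their log2 fold changes of -0.24 and -0.12 became 0.081 and 0.096 without it. These levels rest on 48 to 147 reads per library for Elane and 57 to 192 for Mpo. Mpo shares 15.0% of its exon bases with an antisense gene, and strand use in counting was not given in the sources used here.

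The other serine proteases of primary granules did not peak in NC library 1. Prtn3, proteinase 3, lies next to Elane yet stayed between 1.21 and 2.02 FPKM in the 6 libraries, with a log2 fold change of 0.13. Ctsg, cathepsin G, stood at 1.997, 1.30 and 1.73 FPKM in the NC libraries and at 3.22, 3.25 and 1.95 FPKM in the SFRP2-siRNA libraries. The Ctsg difference of 0.50 on the log2 scale had a standard error of 0.19, with an unadjusted limma p of 0.034 and an adjusted p of 0.518 (exact permutation p = 0.2). SFRP2-siRNA library 3 lay just under NC library 1. Mast cells of connective tissue make cathepsin G as well, and the summed level of 7 mast cell markers was 95.8 to 110 FPKM in the NC libraries and 201, 173 and 142 FPKM in the SFRP2-siRNA libraries, so that the groups did not overlap. The part of mast cells in the Ctsg level was not tested.

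Among secondary and tertiary granule genes 1 of 6 had a log2 fold change above 0 (3 of 6 had a higher mean FPKM in the SFRP2-siRNA group), with a median of -0.13, and they fell into 2 patterns. Camp, Ltf and Ngp, which are transcribed in myelocytes and metamyelocytes, were highest in NC library 1. Ngp, a cystatin-like granule protein, stood at 32.3, 8.09 and 10.9 FPKM in the NC libraries and at 17.9, 12.4 and 13.0 FPKM in the SFRP2-siRNA libraries. Camp, the cathelicidin precursor, stood at 12.5, 3.49 and 4.84 FPKM in the NC libraries and at 5.04, 4.51 and 4.004 FPKM in the SFRP2-siRNA libraries. Ltf, the iron-binding lactoferrin, stood at 2.89, 0.965 and 1.68 FPKM in the NC libraries and at 1.83, 1.00 and 0.990 FPKM in the SFRP2-siRNA libraries. The other NC libraries lay below all SFRP2-siRNA libraries for Ngp, and among or next to them for Camp and Ltf. The log2 fold changes were -0.01 for Ngp, -0.36 for Camp and -0.29 for Ltf, and 0.56, 0.10 and -0.03 without NC library 1, so that the sign of the first 2 changed. That of Ngp, near 0, also changed without SFRP2-siRNA library 2 (0.09) or 3 (0.06) and with rescaling to equal sums (0.09). SFRP2-siRNA libraries 1 and 2, which had the highest levels of receptors and calprotectin, held no more Camp or Ltf than the NC range.

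That contrast shows in ratios within a library, which were computed after these values had been seen. Retnlg to Ngp was 3.39, 5.75 and 2.41 in the NC libraries, 14.2 and 15.0 in SFRP2-siRNA libraries 1 and 2, and 2.79 in SFRP2-siRNA library 3. Csf3r to Camp was 1.20, 6.96 and 2.21 in the NC libraries and 9.51, 8.73 and 2.98 in the SFRP2-siRNA libraries. Ltf to Camp, by contrast, stayed between 0.223 and 0.363 in all 6. Relative to these granule genes, Retnlg and Csf3r were highest in SFRP2-siRNA libraries 1 and 2, for Csf3r only a little above NC library 2. The pairs were chosen with these levels known, so the ratios restate the values and are no separate support.

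Hp, Lcn2 and Pglyrp1 did not peak in NC library 1. Hp, the haemoglobin-binding haptoglobin, was the most abundant of the granule genes, at 1953, 2388 and 1618 FPKM in the NC libraries and 3767, 1870 and 815 FPKM in the SFRP2-siRNA libraries. For Hp the log2 fold change was -0.13 with a standard error of 0.57 (limma adjusted p = 0.92, exact permutation p = 0.8), with SFRP2-siRNA libraries at both ends of the range. Lcn2, the siderophore-binding lipocalin, stood at 79.6, 111 and 48.6 FPKM in the NC libraries and at 129, 109 and 23.5 FPKM in the SFRP2-siRNA libraries, with a log2 fold change of -0.12. Both turned positive without SFRP2-siRNA library 3, at 0.44 and 0.64. Haptoglobin is also made by fat cells, and the summed level of 8 adipocyte markers was 1771 to 2176 FPKM in the NC libraries and 2440, 1336 and 948 FPKM in the SFRP2-siRNA libraries. Lipocalin is also made by wound keratinocytes, whose marker sum was lowest in SFRP2-siRNA library 3. The part of either cell type in these levels was not tested. Pglyrp1, a peptidoglycan-binding granule protein, was higher in the SFRP2-siRNA group, at 2.63, 1.45 and 1.43 FPKM in the NC libraries and 3.88, 2.80 and 1.59 FPKM in the SFRP2-siRNA libraries. Its log2 fold change was 0.39 with a standard error of 0.27 (limma adjusted p = 0.577, exact permutation p = 0.2).

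**Figure D4:**
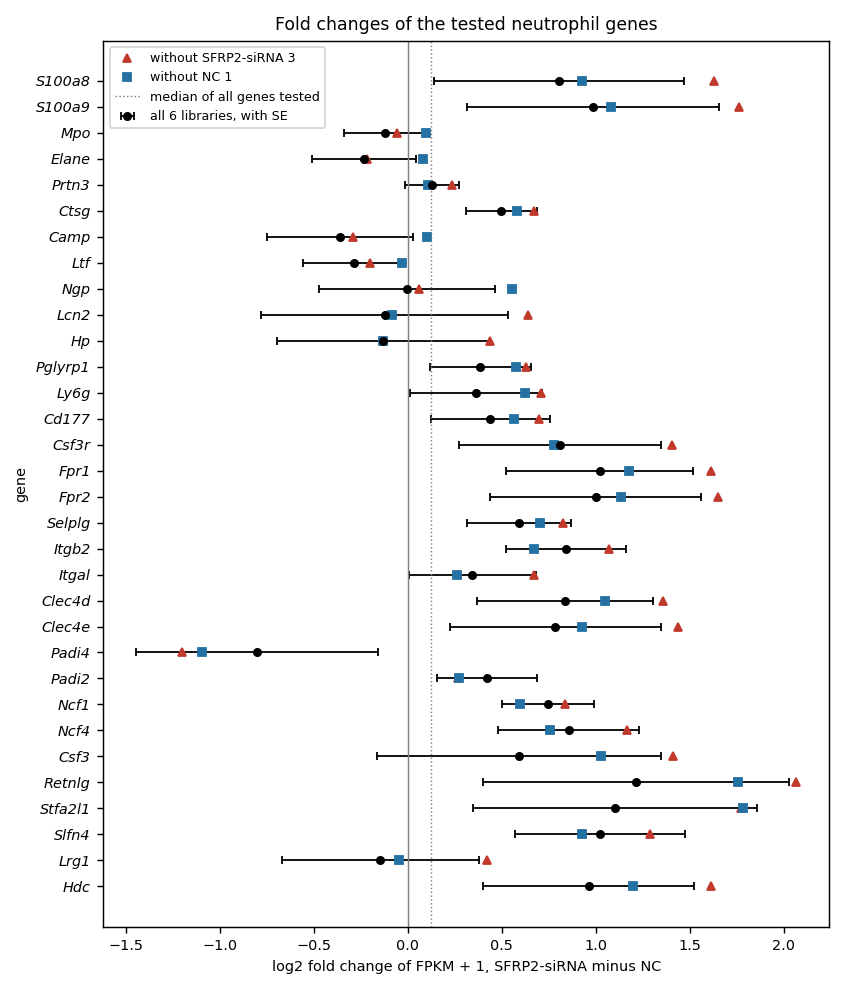
Log2 fold change of FPKM + 1, SFRP2-siRNA minus NC, of the 32 tested genes (black points with standard errors), the same without SFRP2-siRNA library 3 (red triangles) and without NC library 1 (blue squares); the dotted line is the median of all genes tested, 0.125. Leaving out SFRP2-siRNA library 3 moves S100a8, S100a9, Retnlg and the receptors to the right, and leaving out NC library 1 moves Mpo, Elane, Camp and Ngp above 0.

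NADPH oxidase subunits and deiminases differed from each other. Ncf1, the organiser subunit of the phagocyte oxidase, was the only tested gene of the 32 whose groups did not overlap. It stood at 9.47, 17.2 and 10.3 FPKM in the NC libraries and at 25.2, 19.3 and 18.1 FPKM in the SFRP2-siRNA libraries. The log2 fold change of 0.75 had a standard error of 0.25, with an unadjusted limma p of 0.02 and an adjusted p of 0.518 (exact permutation p = 0.1). The gap between the groups was small, and with median-of-ratios scaling they overlapped. Ncf1 shares 11.1% of its exon bases with Gtf2ird2 on the other strand. Ncf4, another cytosolic subunit, stood at 14.5, 26.0 and 12.4 FPKM in the NC libraries and at 47.4, 31.7 and 19.8 FPKM in the SFRP2-siRNA libraries, a log2 fold change of 0.85 with a standard error of 0.38 (limma adjusted p = 0.52, exact permutation p = 0.2). In both, SFRP2-siRNA library 3 lay above at least 2 of the 3 NC libraries, unlike calprotectin. The macrophage sum given above likewise had SFRP2-siRNA library 1 highest of all and NC library 2 highest of its group, and the part of macrophages was not tested.

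Padi4 was the only one of the 35 genes that was lowest in SFRP2-siRNA library 1. It stood at 6.20, 11.5 and 13.1 FPKM in the NC libraries and at 1.14, 9.33 and 9.80 FPKM in the SFRP2-siRNA libraries. The Padi4 log2 fold change was -0.80 with a standard error of 0.64 (limma adjusted p = 0.604, exact permutation p = 0.5), and -0.03 without SFRP2-siRNA library 1. It was therefore lowest in the library with the most Fpr1, Csf3r and Ly6g. Its order of libraries resembled that of hair follicle genes, which were looked at after the Padi4 values had been seen. Padi3, the neighbouring deiminase of hair and epidermis, stood at 22.6, 36.1 and 50.3 FPKM in the NC libraries and at 0.480, 45.7 and 35.003 FPKM in the SFRP2-siRNA libraries. The summed level of 8 hair follicle genes, Padi3 among them, was 2263, 3381 and 4813 FPKM in the NC libraries and 22.1, 4785 and 3369 FPKM in the SFRP2-siRNA libraries. The part of hair follicles in the Padi4 level was not tested. Padi2, a deiminase of many tissues, was highest in SFRP2-siRNA library 3, with 1.48 to 2.73 FPKM in the NC libraries, 1.80, 3.78 and 4.08 FPKM in the SFRP2-siRNA libraries and a log2 fold change of 0.42.

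The transcription factors of granulocyte maturation were near the limit of detection and were not tested. Cebpe, needed for secondary granule genes, stood at 0.256, 0.275 and 0.211 FPKM in the NC libraries and at 0.375, 0.391 and 0.308 FPKM in the SFRP2-siRNA libraries, that is 12 to 22 reads per library. Its groups did not overlap (exact permutation p = 0.1), but so few reads leave each level imprecise. Gfi1, a repressor needed for neutrophil differentiation, stood between 0.128 and 0.214 FPKM in the NC libraries and at 0.344, 0.249 and 0.153 FPKM in the SFRP2-siRNA libraries, that is 18 to 47 reads.

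Of the 6 cytokine and other neutrophil-linked genes, 5 had a log2 fold change above 0 (all 6 had a higher mean FPKM in the SFRP2-siRNA group), with a median of 0.99. Retnlg, a resistin-like secreted protein of mature neutrophils, had the largest log2 fold change of all 32 tested genes. It stood at 110, 46.5 and 26.2 FPKM in the NC libraries and at 254, 187 and 36.2 FPKM in the SFRP2-siRNA libraries. The log2 fold change of 1.21 had a standard error of 0.81 (limma adjusted p = 0.568, exact permutation p = 0.3) and was 2.07 without SFRP2-siRNA library 3, which lay among the NC libraries. The stefin Stfa2l1 and the histamine-forming enzyme Hdc had log2 fold changes of 1.10 and 0.96 with the same split of libraries. Reads of near-identical stefin copies may be split between genes, so the Stfa2l1 value is uncertain. Hdc stood at 8.80 to 18.3 FPKM in the NC libraries and at 39.7, 43.9 and 9.98 FPKM in the SFRP2-siRNA libraries. Mast cells express Hdc strongly, and the part of mast cells, whose marker sum is given above, was not tested.

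Slfn4, a schlafen gene of activated myeloid cells, stood at 21.0, 46.9 and 14.0 FPKM in the NC libraries and at 68.6, 53.3 and 34.2 FPKM in the SFRP2-siRNA libraries, a log2 fold change of 1.02. Csf3, which encodes G-CSF, the growth factor that mobilises neutrophils, stood at 11.4, 5.79 and 2.66 FPKM in the NC libraries and at 15.2, 18.9 and 2.25 FPKM in the SFRP2-siRNA libraries. Its log2 fold change was 0.59 with a standard error of 0.75, and its highest and lowest libraries were both SFRP2-siRNA libraries, as for the calprotectin genes. Lrg1, a secreted glycoprotein of neutrophil granules, liver and fat, was the most abundant of the 6, at 193, 203 and 123 FPKM in the NC libraries and 300, 171 and 68.8 FPKM in the SFRP2-siRNA libraries. Its log2 fold change of -0.15 had a standard error of 0.53 (limma adjusted p = 0.904, exact permutation p = 0.8), and its order of libraries was that of Hp.

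A further 29 genes of neutrophil function, outside the 35, were read for comparison. Of these, 27 had a log2 fold change above 0, against 71.8% of all genes, and the median was 0.73. An unadjusted limma p below 0.05 was found for 8 of them, against 9.58% of all genes, and none was called. The groups did not overlap for 6 of them (Itgam, Mmp8, Chil3, Serpinb1a, Alox5ap and Cyba), against the 13.9% of all genes given above. With median-of-ratios scaling the groups overlapped for Itgam, Mmp8, Serpinb1a and Alox5ap. The smallest unadjusted p-values belonged to Cyba, a membrane subunit of the oxidase, at 39.8 ± 9.25 FPKM in the NC libraries and 70.0 ± 19.7 FPKM in the SFRP2-siRNA libraries (SD, n = 3, limma adjusted p = 0.518), Itgam, the integrin chain CD11b, at 5.49 ± 1.57 and 12.1 ± 5.29 FPKM (SD, n = 3, limma adjusted p = 0.518), and Mmp8, neutrophil collagenase, at 5.76 ± 1.81 and 10.9 ± 3.49 FPKM (SD, n = 3, limma adjusted p = 0.518). In the deposited values SFRP2-siRNA library 3 lay above the NC range for all 3, unlike Csf3r, Fpr1 or Retnlg. For Itgam and Mmp8 it did so by a small margin only. With the overlap under median-of-ratios scaling given above, this contrast held under both scalings for Cyba alone.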

How the data were processed

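RNA of wound tissue was sequenced as paired-end mRNA libraries (ABclonal kit). The authors deposited gene-level FPKM for 6 libraries. The submitters' processing notes name HISAT2, Subread and featureCounts. Genome build and annotation were not given in the sources used here. Symbols were found for 32582 of 33184 Ensembl IDs. Multiplied by GENCODE vM21 exon lengths, FPKM gave whole reads (within 0.02 reads) for 32029 genes (98.3%), and 63.4 to 65.5% of those from 1 to 20 were even, as when both mates of a pair are counted.

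Groups were taken from the sample titles. Genes averaging 0.5 FPKM or more (16005) were tested on log2(FPKM + 1) with limma 3.58.1 (R 4.3.3; lmFit, eBayes with intensity trend, two-sided, Benjamini-Hochberg). This scale understates changes of low genes. Thresholds were an adjusted p of 0.05 and an absolute log2 fold change of 1, those of the study. Single genes were also tested by two-sided exact permutation. The scripts were tested on simulated data. Alternatives covered pseudocount, filter, scaling, trend, replicate block and leaving out each library; limma voom on recovered reads, the library order under other scalings and the hair follicle list were added after seeing the data.

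The genes and lists were chosen with earlier results of these data known. All 35 were accounted for; the naming rule asked for per-library values of, in each role, the most abundant gene, the one with the largest fold change, any without overlap, and Ly6g, and of the comparison genes the 3 with the smallest p. Others given per library were chosen after their values were seen. The libraries labelled SFRP2-siRNA are numbered as 3 siRNAs of the study are, and whether each received a different one is not stated.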

Additional observations from a re-analysis of the deposited data

How the results depend on the processing

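None of the neutrophil genes tested (27 to 35, depending on the setting) was called in any of the 14 alternatives run, and the median log2 fold change of those tested stayed above 0, from 0.36 without NC library 3 to 0.75 with a filter at 2 FPKM. Of 443 single-gene refits 429 kept their direction and 14 reversed, in 7 genes. The number of genes higher without overlap was 2 without a filter (9.42% of all genes tested), 0 with median-of-ratios scaling (5.26%) and 2 with rescaling to equal sums (14.6%). When single libraries were left out it ran from 1 to 23. It was 5 without NC library 1 (15.8%), 5 without NC library 2 (25.9%) and 1 without NC library 3 (29.05%). It was 2 without SFRP2-siRNA library 1 (23.7%), 1 without SFRP2-siRNA library 2 (21.2%) and 23 without SFRP2-siRNA library 3 (22.1%). The number lower without overlap was 0 to 1. Ngp turned to 0.0072 with a pseudocount of 0.1, 0.088 with equal sums and 0.013 with voom. With single libraries left out, log2 fold changes ran from -0.28 to 0.096 for Mpo, -0.47 to 0.081 for Elane, -0.69 to 0.10 for Camp, -0.38 to 0.56 for Ngp, -0.56 to 0.64 for Lcn2, -0.67 to 0.44 for Hp and -0.63 to 0.42 for Lrg1. The median over all genes was 0.125 as deposited, -0.00011 when scaled by median of ratios and 0.196 with equal sums, and that of the neutrophil genes minus it stayed between 0.19 and 0.61. Deviations of same-numbered libraries correlated at r = -0.047, -0.15 and 0.38 for numbers 1 to 3, not above 0.1 in every pair, so numbers were not taken to pair them; with a replicate block the calls stayed at 0, the median at 0.54 and the smallest adjusted p of a neutrophil gene was 0.289, with 15 genes at an unadjusted p below 0.05 (12.1% of all genes) in place of 3 (9.58%). With 3 libraries a group, and 12 to 215 reads behind the scarcest genes, small differences were not detectable.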
